A study of Mus musculus with 6 samples.

Results

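Transcripts of the alveolar epithelium were followed in RNA sequencing libraries of lung cells selected for the endothelial surface protein CD31. The members are 9 genes, named by symbol among the 24951 genes of the count table, and all 9 were found and passed the filter on low counts. Of these, 6 mark the type 2 alveolar cell (Sftpc, Sftpa1, Sftpb, Sftpd, Lamp3 and Abca3) and 3 mark the type 1 alveolar cell (Hopx, Ager and Aqp5). The mutant group held 3 libraries from Smad4 f/f pups carrying Cdh5-CreERT2, a transgene in which the Cdh5 promoter drives a tamoxifen-inducible Cre recombinase in endothelial cells. The control group held 3 libraries from pups with the same floxed alleles and no Cre, which the titles and genotype labels call wildtype. All pups were at postnatal day 5, and the labels give no dose or day of tamoxifen and no sex. The column names of all 6 libraries share one code that the labels do not explain. None of the 6 libraries comes from a pup with Cre and intact Smad4. Lungs were digested with collagenase and dispase, and cells were pulled down on magnetic beads coated with CD31 antibody, a selection that enriches endothelial cells and was followed by no further sort per the labels. One sentence of the protocol calls the mice HHTf/f and HHTiECKO, which the labels do not explain.

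The alveolus is lined by a pair of epithelial cell types. Type 2 cells are cuboidal, make pulmonary surfactant and store it in lamellar bodies, and serve as progenitors of the lining. Type 1 cells are thin and flat, cover most of the gas exchange surface and share a fused basement membrane with the capillary endothelium. Neither cell type makes the endothelial proteins by which the libraries were selected, so the 9 genes are read here mainly as the level of epithelial RNA in each library. In bulk libraries such as these, fewer cells of a type and less RNA per cell cannot be told apart.

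The libraries held 18543717, 16041786 and 20172318 reads assigned to genes in mutant replicates 1, 2 and 3, and 21113926, 14093564 and 20874393 in control replicates 1, 2 and 3. All 15 endothelial markers examined passed the filter, and the cadherin gene Cdh5 ranked 6 among 24419 genes by level per length. Of these markers Robo4 was called higher and Tek, Flt1 and Calcrl lower in the mutant libraries, 1 and 3 genes, and their summed level was 12576 to 12716 CPM in mutant libraries (CPM being counts scaled to a common library total), against 13139 to 14430 CPM in control libraries. Smad4, the targeted gene, stood at 88.8, 72.8 and 94.2 CPM in mutant libraries, against 188, 177 and 181 CPM in control libraries (log2 fold change -1.09 with an SE of 0.10, adjusted p = 0.000604 by the edgeR quasi-likelihood test). Over all genes, 488 of 14934 tested were called at an adjusted p under 0.05, which is 3.27% (1.93% higher and 1.34% lower in mutant libraries).

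The epithelial genes were abundant for cells selected on an endothelial protein. With counts divided by exon length and scaled to a common total (TPM, which can be set side by side between genes), Sftpc averaged 4347 ± 163 TPM in mutant libraries and 4667 ± 1392 TPM in control libraries (SD, n = 3 each). It ranked 1 of 24419 genes by its mean over all 6 libraries, and 2 when the longest transcript replaced the union of exons as the length. The endothelial gene Pecam1, which encodes CD31, averaged 1179 ± 20.7 TPM in mutant libraries and 1113 ± 58.9 TPM in control libraries, and ranked 51 by the union of exons. Ager, the most abundant type 1 member, ranked 50 with 1173 ± 198 TPM in mutant libraries and 1163 ± 337 TPM in control libraries. With the longest transcript as the length, Ager averaged 1011 TPM in mutant and 1004 TPM in control libraries and ranked 63, while Pecam1 averaged 1612 TPM in mutant and 1523 TPM in control libraries and ranked 21, so the order of the pair depends on the length used. By the union of exons Sftpb ranked 71, Sftpa1 238, Hopx 350, Aqp5 957, Sftpd 1062, Lamp3 1412 and Abca3 1657 on this scale. As a share of assigned reads, which is not corrected for length, the 9 genes made up 0.298% to 0.338% of mutant libraries and 0.218% to 0.439% of control libraries.

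Promoter sequences are shown for 3 members because the gene of the factor NKX2-1, known to drive surfactant genes through a CAAG core, had a pattern across libraries close to that of the type 2 members, as given further on. The RefSeq promoter set of GRCm38.p6 held 8 promoters for 7 of the 9 members, with no entry for Sftpc and Sftpd. Each line runs 5′ to 3′ over the 250 bases before the transcription start, and capitals mark CAAG on either strand (CTTG on the strand shown). The first is Sftpb at chr6:72304360-72304609, the second Sftpa1 at chr14:41131538-41131787 and the third the type 1 gene Ager at chr17:34597600-34597849, all on the plus strand.
Sftpb: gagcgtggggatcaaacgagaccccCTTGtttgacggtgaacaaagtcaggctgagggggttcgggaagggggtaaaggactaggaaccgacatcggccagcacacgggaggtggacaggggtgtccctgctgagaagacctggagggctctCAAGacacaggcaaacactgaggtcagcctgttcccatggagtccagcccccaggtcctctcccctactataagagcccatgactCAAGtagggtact
Sftpa1: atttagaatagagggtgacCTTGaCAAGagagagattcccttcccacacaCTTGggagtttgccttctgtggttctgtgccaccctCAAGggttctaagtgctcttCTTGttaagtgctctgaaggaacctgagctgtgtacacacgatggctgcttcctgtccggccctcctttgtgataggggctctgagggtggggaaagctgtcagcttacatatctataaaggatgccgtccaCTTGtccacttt
Ager: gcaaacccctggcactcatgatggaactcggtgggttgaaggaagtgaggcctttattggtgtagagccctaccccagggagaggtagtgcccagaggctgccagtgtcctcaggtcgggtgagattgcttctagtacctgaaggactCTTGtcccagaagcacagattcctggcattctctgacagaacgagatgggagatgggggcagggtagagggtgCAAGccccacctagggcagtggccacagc
CAAG was found 3 times in the Sftpb window, 6 times in that of Sftpa1 and 2 times in that of Ager. Over 32851 promoters of the same length it was found 2.16 times per promoter on average, and at least 1 time in 86.6%. The longer string CTCAAG, which contains CAAG and was chosen after these windows were read, occurred 2 times in Sftpb, beginning at bases -100 and -15, and 1 time in Sftpa1, at base -166. It was not found in the Ager window. Of the 8 member promoters 3 held it, and the third was a promoter of the type 1 gene Hopx, with 1 match on the other strand at base -112. The promoters of the type 2 genes Lamp3 and Abca3 held 0, as did that of the type 1 gene Aqp5, so the string did not divide the cell types. It was present in 13.3% of all promoters. These matches describe letters in a window and were not tested as binding sites.

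Among the control libraries, the surfactant genes varied more than most genes of their level, and always in the same order. Sftpc encodes the precursor of surfactant protein C, a small hydrophobic peptide made by type 2 cells, and lies on chromosome 14 from 70520949 to 70524081 on the minus strand of GRCm38. Its level was 1358, 1181 and 734 CPM in control replicates 1, 2 and 3, so the highest control was 1.85 times the lowest. Sftpb encodes surfactant protein B, the peptide that spreads surfactant lipids at the air surface and without which newborn mice cannot breathe, and lies on chromosome 6 from 72304610 to 72314371. It stood at 641, 537 and 280.0 CPM in control replicates 1, 2 and 3, and the highest was 2.29 times the lowest. In both genes control replicate 1 was the highest of the 6 libraries and control replicate 3 the lowest.

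The collectin genes spread further. Sftpa1 and Sftpd encode surfactant proteins A and D, secreted lectins of lung host defence, and both lie on chromosome 14, Sftpa1 from 41131782 to 41136452 and Sftpd from 41172214 to 41185149. Sftpa1 had 530.3, 423 and 204 CPM in control replicates 1, 2 and 3, and Sftpd had 157, 122 and 59.95 CPM. Highest over lowest was 2.60 for Sftpa1 and 2.62 for Sftpd. Lamp3, a membrane protein gene of lamellar bodies that mature dendritic cells also use, had 189.9, 138 and 73.5 CPM in control replicates 1, 2 and 3. Abca3, the transporter that loads lipid into lamellar bodies, was the steadiest type 2 member, with 346, 302 and 228 CPM. Lamp3 lies on chromosome 16 from 19653378 to 19706375 and Abca3 on chromosome 17 from 24351950 to 24410201. The type 2 members' coefficients of variation over the 3 control libraries were 20.5% to 43.6%, against a median of 11.3% over all tested genes.

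Type 1 members varied in the same order among controls, with a median coefficient of variation of 28.7%, against 40.7% for the type 2 members. Ager, which encodes the receptor for advanced glycation end products of the type 1 cell's basal membrane, had 729, 556 and 405 CPM in control replicates 1, 2 and 3. Hopx, a homeodomain protein gene, had 184, 141 and 120.4 CPM, and Aqp5, an apical water channel gene, had 189, 122 and 93.2 CPM. Ager lies on chromosome 17 from 34597862 to 34600936, Hopx on chromosome 5 from 77086988 to 77115121 and Aqp5 on chromosome 15 from 99590782 to 99594829. The 3 coefficients were 21.9% to 36.4%. All 9 members stood higher in control replicate 1 than in control replicate 2, and higher in control replicate 2 than in control replicate 3. Over all tested genes, control replicate 1 was the highest control in 35.3% and control replicate 3 the lowest control in 29.3%.

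The members' spread was set beside that of other genes. The lowest count of any member in any library was 1244, and the counting error of the lowest count of each gene was at most 2.84%. Set beside the 500 tested genes nearest in mean level, the SD of log2 CPM over the control libraries was larger in the type 2 members than in 92% to 100% of those genes, and larger in the type 1 members than in 93.6% to 98.6%. Over the mutant libraries the type 2 members' SD was larger than in 22.8% to 93.2% of the same genes, with Sftpd at the top and Sftpc at the bottom, and the type 1 members' SD larger than in 89.2% to 94.6%. The SD of log2 CPM was larger in control than in mutant libraries for 9 of 9 members, against 56.9% of all tested genes. Control replicate 3 carried much of the size of that spread: the median SD of the members over controls was 0.51, and 0.26 without it. Over control replicates 1 and 2 alone the SD was still the larger in 9 of 9 members, against 51.6% of all tested genes, by almost nothing for Ager. The 9 members ran in the same order across the controls, so counts of 9 of 9 are not 9 independent observations.

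**Figure D1:**
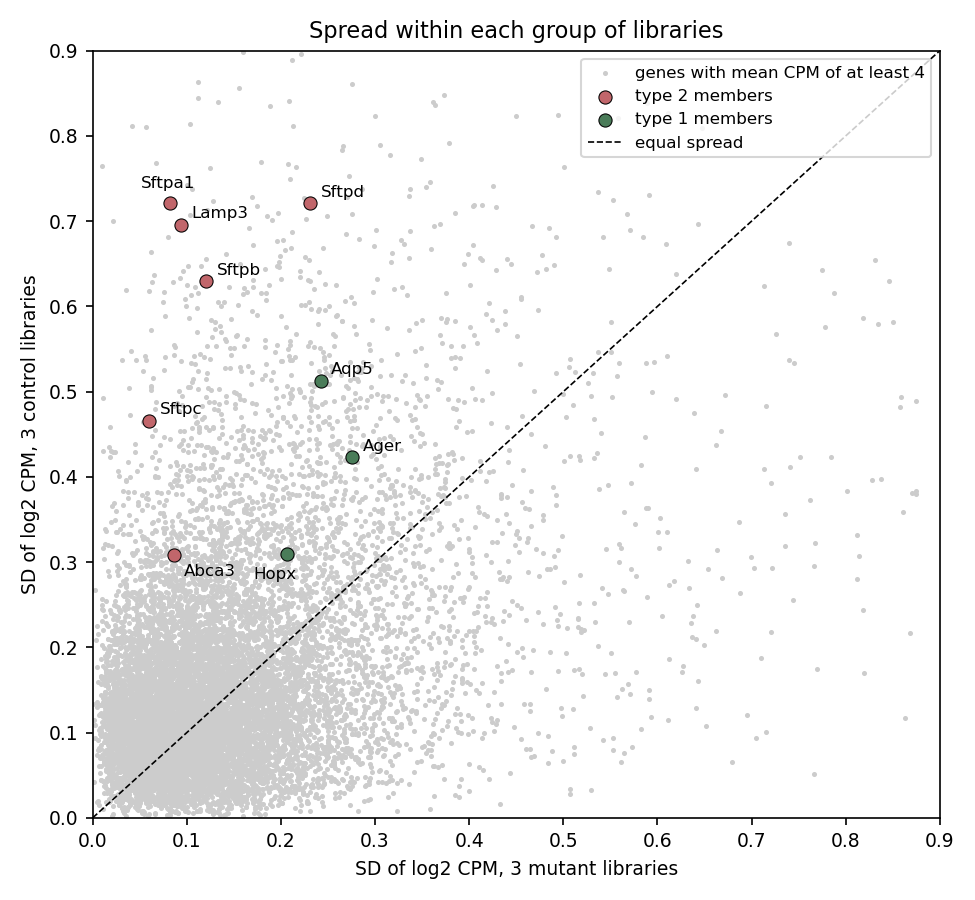
SD of log2 CPM over the 3 mutant libraries (horizontal) against that over the 3 control libraries (vertical), with 12086 genes of mean CPM of at least 4 in grey, 83 of them outside the axes, and the 9 members coloured by cell type. All 9 members lie above the dashed line of equal spread, and Sftpa1 and Sftpd have the largest control spread of the members, 0.72 each.

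Set against that range, the mutant libraries lay within the controls for the type 2 genes. Sftpc had 1015, 1101 and 1038 CPM in mutant replicates 1, 2 and 3, all between control replicate 3 and control replicate 2. Its mean was 1051 ± 44.1 CPM in mutant libraries, against 1091 ± 322 CPM in control libraries (SD, n = 3 each). Mutant over control, this is a log2 fold change of -0.05 (SE 0.20, 95% interval -0.53 to 0.43), with an adjusted p of 0.937 by edgeR's quasi-likelihood test. The interval spans 0.691 to 1.34 times the control level.

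Sftpb had 408, 469 and 405.0 CPM in mutant replicates 1, 2 and 3, again between control replicates 3 and 2. Its log2 fold change was -0.19 with a 95% interval of -0.85 to 0.48. Sftpa1 had 339.7, 325 and 303 CPM in mutant libraries, with a log2 fold change of -0.26 and an interval of -1.05 to 0.53. Sftpd had 89.8, 119.6 and 91.6 CPM in mutant libraries, with a log2 fold change of -0.17 and an interval of -1.002 to 0.66. For each of these 3 genes the mutant libraries lay within the control range.

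Lamp3 had 108, 96.3 and 107 CPM in mutant libraries, a mean of 104 ± 6.62 CPM against 134 ± 58.3 CPM in control libraries (SD, n = 3 each). This was the furthest estimate from 0 among the 9 members, at -0.36 on the log2 scale (SE 0.32, interval -1.14 to 0.41, edgeR adjusted p = 0.68). Abca3 had 277, 313 and 293 CPM in mutant libraries and the narrowest interval of the 9, -0.31 to 0.33 around a log2 fold change of 0.01. In all 6 type 2 members the 3 mutant libraries lay inside the control range, a placing seen in 20.8% of all tested genes. The members' own wide control range enters that count.

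**Figure D2:**
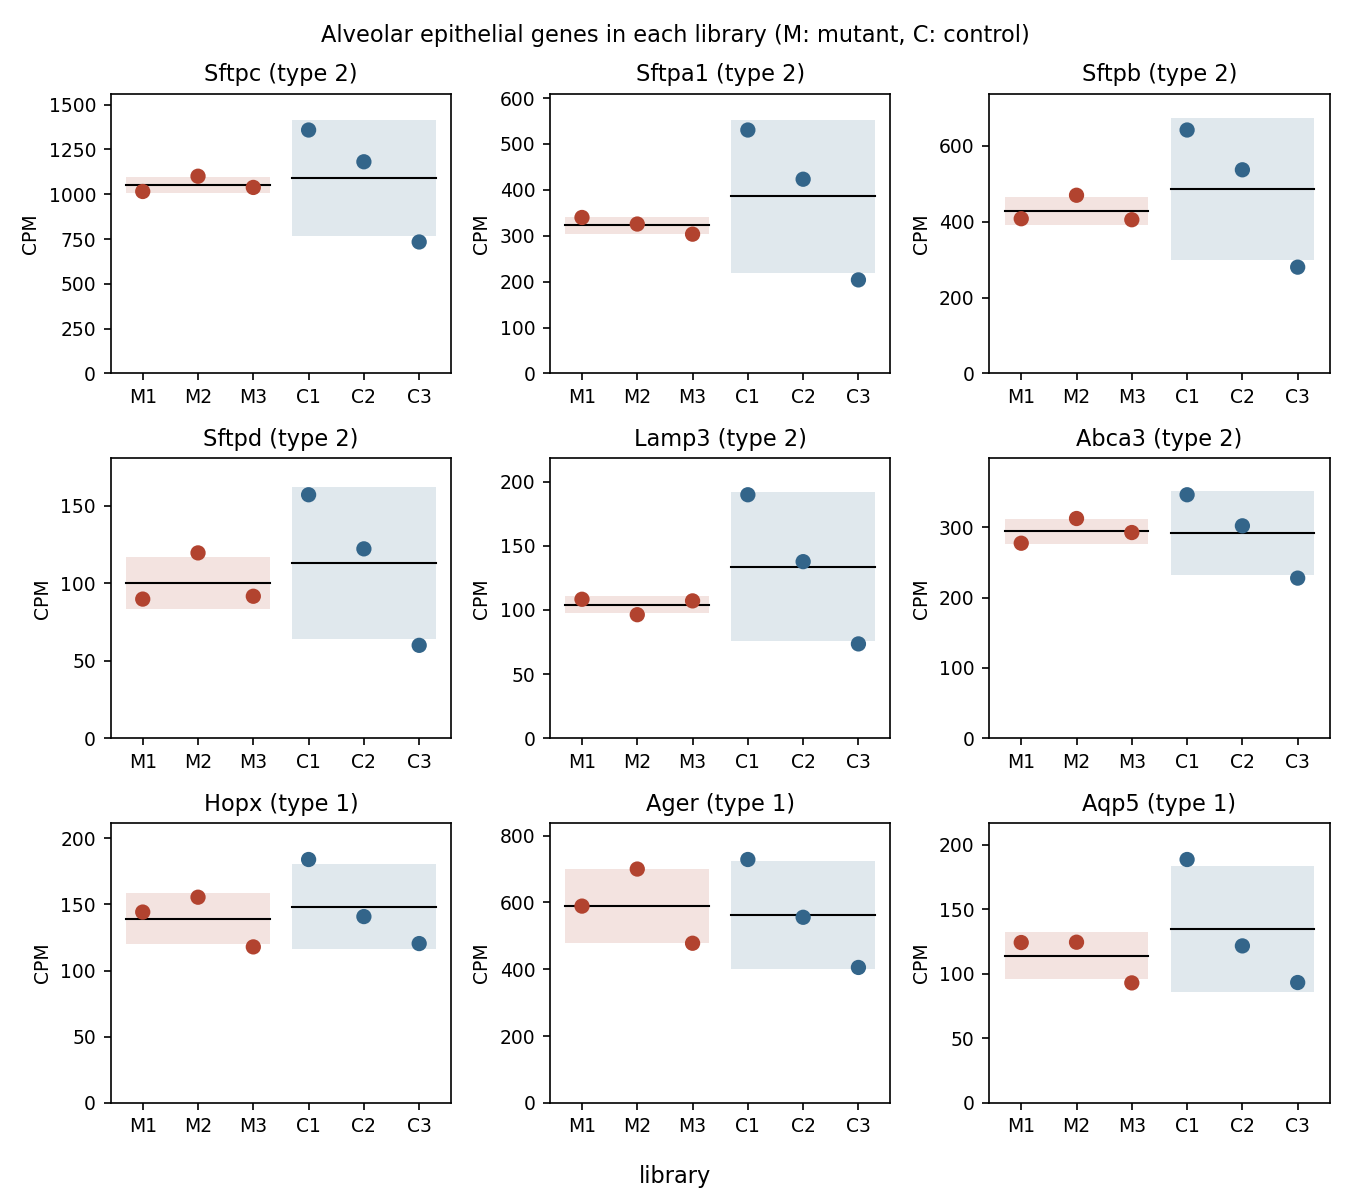
CPM of each member in mutant libraries M1 to M3 (red) and control libraries C1 to C3 (blue), with one panel per gene and axes from 0; lines give group means and shaded bands the mean ± SD (n = 3). Control library C1 is the highest point in all 9 panels, and C3 is the lowest in the 6 type 2 panels.

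Type 1 members did not separate the groups either, and mutant replicate 3 was the lowest mutant library in all 3. Ager had 589, 700.0 and 478 CPM in mutant replicates 1, 2 and 3, a mean of 589 ± 111 CPM against 563 ± 162 CPM in control libraries (SD, n = 3 each), and its mutant values lay inside the control range. Its log2 fold change was 0.06 with an interval of -0.47 to 0.60. Hopx had 144, 155 and 118 CPM and Aqp5 had 124.2, 124.5 and 92.96 CPM in mutant replicates 1, 2 and 3. For both, mutant replicate 3 lay just under control replicate 3 and was the lowest of the 6 libraries. Their log2 fold changes were -0.09 for Hopx and -0.24 for Aqp5, with intervals of -0.47 to 0.28 and -0.86 to 0.38.

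Mutant coefficients of variation were 13.8% to 18.9% in the type 1 members and 4.2% to 16.7% in the type 2 members. By GENCODE M21, 27.2% of the exon bases of Hopx lie under an antisense RNA gene, and 9.75% of those of Abca3 under another gene. The library kit named in the labels, TruSeq RNA v2, does not mark strand, so reads of Hopx and Abca3 may include reads of those partners. They may instead lack reads of their own, where reads over shared bases were set aside as ambiguous.

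Of the 9 members 0 were called by edgeR, against 3.27% of all tested genes. At so small a share, 0 of 9 says little about the members. An unadjusted p under 0.05 was found for 0 of the 9, against 14% of all tested genes. DESeq2 and limma-voom also called 0. Mutant and control libraries overlapped in 9 of 9 members, and did not overlap in 20.6% of all tested genes. The median log2 fold change was -0.18 for the 6 type 2 members and -0.09 for the 3 type 1 members, against -0.0024 over all tested genes. These 2 medians of members were -0.18 and -0.094 with DESeq2, but -0.089 and -0.083 with limma-voom. The gap between the cell types therefore depended on the tool. Adjusted p-values of the members ran from 0.68 to 0.982. Since the intervals of Sftpa1, Sftpd and Lamp3 reach to a level of 0.485, 0.499 and 0.454 times the control level, these libraries do not separate a lowering of that size from no change. The same intervals reach up to 1.45, 1.58 and 1.33 times the control level, so a rise of that size is not separated either.

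The estimates turned on which control was counted. Without control replicate 3, all 9 log2 fold changes were negative, from -0.66 to -0.13, and edgeR called 2 members lower, Lamp3 (-0.66, adjusted p = 0.0393) and Sftpa1 (-0.56, adjusted p = 0.0407). In that fit 2.16% of 15052 tested genes were called, 0.89% as lower. Without control replicate 1, 8 of the 9 were positive, up to 0.29 for Ager, and 0 were called, with Lamp3 at -0.02, while 2.84% of 15067 tested genes were called. In all 9 members control replicate 1 was the highest control and control replicate 3 the lowest. The direction of these shifts was therefore set by which library was left out. Leaving out control replicate 3 also narrowed the SE of Lamp3 from 0.32 to 0.14, so the calls made without it do not test a lowering.

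**Figure D3:**
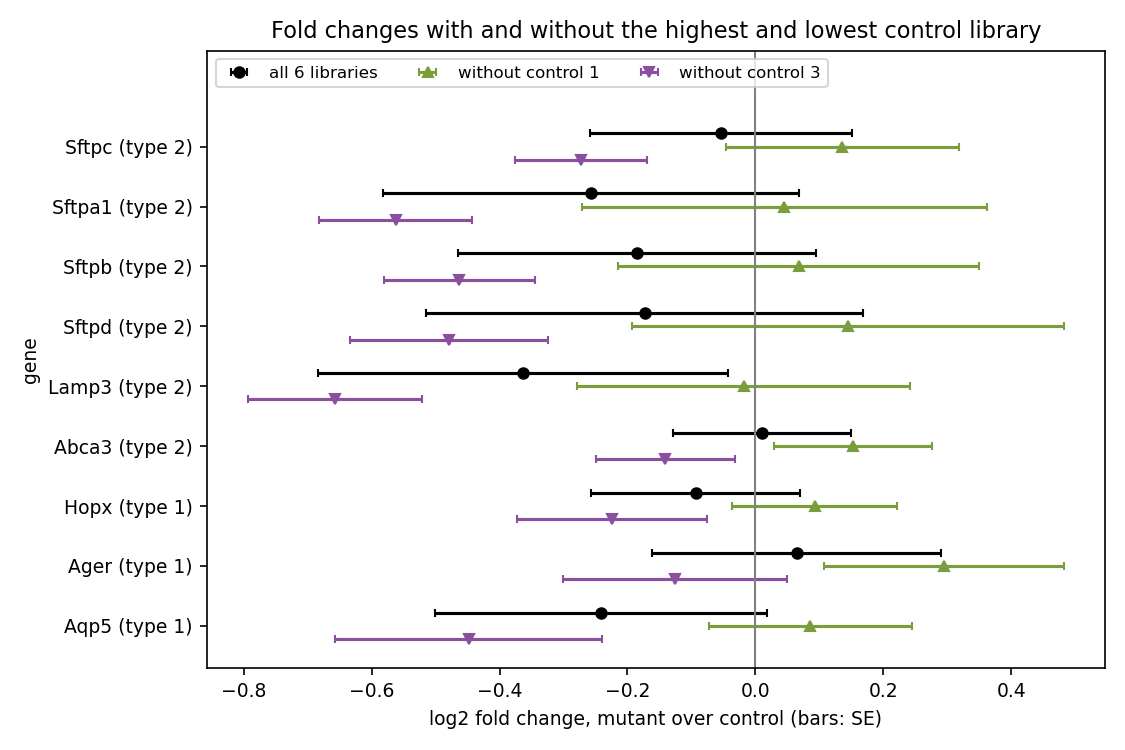
Log2 fold change of mutant over control with its SE for each member, fitted with all 6 libraries (black circles), without control replicate 1 (green triangles) and without control replicate 3 (purple triangles). Without control replicate 3 every point is below 0, while without control replicate 1 every point but that of Lamp3 is above 0. These libraries are the lowest and the highest control of every member, so the direction of each shift was set by the choice of library.

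Other genes of type 2 cells followed the same order of libraries. All 16 listed type 2 genes outside the members passed the filter, and edgeR called 0 of them, against 3.27% of all tested genes. Of the 16, 0 had an unadjusted p under 0.05, and DESeq2 and limma-voom called 0. Their median log2 fold change was -0.20. In 16 of 16 the mutant libraries lay inside the control range and control replicate 3 was the lowest of the 6 libraries, which it was in 16% of all tested genes. In 15 of 16 control replicate 1 was the highest of the 6, as in 16.7% of all tested genes. Slc34a2, the phosphate transporter gene of type 2 cells, had 338, 342 and 343 CPM in mutant replicates 1, 2 and 3, against 604, 441 and 215 CPM in control replicates 1, 2 and 3. The 3 mutant libraries were nearly level while the controls spread widely, and the log2 fold change was -0.30 with an interval of -1.15 to 0.55. Cxcl15, a lung chemokine gene, had 229, 173 and 199.9 CPM in mutant libraries, against 368, 277 and 149 CPM in control libraries. Ctsh, a cathepsin gene that takes part in processing surfactant protein precursors, spread less, with 209, 218 and 192 CPM in mutant libraries and 238, 183 and 163 CPM in control libraries. Without control replicate 3, edgeR called 3 of the 16 lower, against 0.89% of all genes tested in that fit. They were Slc34a2 (log2 fold change -0.62, adjusted p = 0.041), Muc1 (-0.70, 0.0293) and Hc (-0.58, 0.0174). Muc1 and Hc are named here after their values were seen. Because control replicate 3 was the lowest library in 16 of 16, leaving it out set the direction of the shift, and these calls do not test a lowering. The 16 genes followed the same libraries and are not independent of each other or of the members.

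Other genes of type 1 cells were tested likewise. Of 18 such genes edgeR called 0, against 3.27% of all tested genes. An unadjusted p under 0.05 was found for 2 of the 18, against 14% of all tested genes, and DESeq2 and limma-voom called 0. The median log2 fold change was 0.07, with 12 positive and 6 negative. Mutant replicate 3 was the lowest of the mutants in 17 of 18, as in 32.9% of all tested genes, and in 3 of the 3 type 1 members. Among the type 2 members it was the lowest mutant in 2 of 6, and among the other type 2 genes in 6 of 16. Col4a3, a basement membrane collagen gene, had 440.3, 459.8 and 318 CPM in mutant libraries, against 480.1, 345 and 246 CPM in control libraries. Clic5, a chloride intracellular channel gene, had 554, 508 and 485 CPM in mutant libraries, against 728, 635 and 543 CPM in control libraries, and did not pass (log2 fold change -0.30, edgeR adjusted p = 0.242). Without control replicate 1, edgeR called 1 gene of this list higher, Igfbp2 (1.10, adjusted p = 0.048), named after its values were seen, against 1.49% of all genes tested in that fit called higher. Control replicate 1 was the highest control in 18 of 18, so leaving it out set the direction of that shift.

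The balance of type 2 to type 1 RNA differed between libraries of both groups. Summed over the members, type 2 genes had 2238, 2424 and 2238 CPM in mutant replicates 1, 2 and 3, against 3224, 2703 and 1579 CPM in control replicates 1, 2 and 3. Type 1 genes had 858, 979.9 and 689 CPM in mutant libraries, against 1101, 818 and 619 CPM in control libraries. The ratio of the first sum to the second was 2.61, 2.47 and 3.25 in mutant libraries, against 2.93, 3.30 and 2.55 in control libraries, so the groups overlapped. In reads assigned to genes, type 2 members took 0.220% (95% exact interval 0.218% to 0.222%), 0.241% (0.238% to 0.243%) and 0.228% (0.225% to 0.230%) of mutant replicates 1, 2 and 3. They took 0.327% (0.325% to 0.330%), 0.270% (0.267% to 0.272%) and 0.157% (0.155% to 0.159%) of control replicates 1, 2 and 3. These Clopper-Pearson intervals cover counting error only.

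General epithelial genes and genes of other lung cells were set beside the members. Of 16 general epithelial genes 0 were called by edgeR, against 3.27% of all tested genes. Of the 16, 0 had an unadjusted p under 0.05, and DESeq2 and limma-voom called 0. Control replicate 3 was the lowest control in 16 of 16. Epcam, an epithelial adhesion gene, had 29.6, 36.4 and 25.7 CPM in mutant libraries, against 40.5, 30.2 and 21.3 CPM in control libraries. Cdh1, the epithelial cadherin gene, had 169, 159.98 and 132 CPM in mutant libraries, against 233, 153 and 115 CPM in control libraries. Among tested airway genes control replicate 3 was the lowest control in 6 of 10, and control replicate 1 the highest control in 3 of 10. Sec14l3, the most abundant airway gene listed by CPM, had 369, 362 and 342 CPM in mutant libraries, against 436, 373 and 288 CPM in control libraries. Its controls ran in the members' order, as did those of Tppp3 (125, 104 and 80.5 CPM). Those of Scgb1a1, the secretory protein gene of club cells, did not. Scgb1a1 had 229, 248 and 311 CPM in mutant libraries, against 255, 301 and 269.9 CPM in control libraries. Of 10 tested airway genes 0 were called by edgeR, DESeq2 or limma-voom (1 at an unadjusted p under 0.05), 3 had the mutants inside the control range, and the basal cell keratin Krt5 was listed at 0 in every library.

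Control replicate 3 was also the lowest library in the markers of mesenchymal cells, by their medians. Relative to the control mean, the median log2 CPM of 12 fibroblast markers was 0.20, 0.29 and -0.12 in mutant replicates 1, 2 and 3, and 0.13, 0.20 and -0.34 in control replicates 1, 2 and 3. For 13 pericyte and smooth muscle markers it was 0.23, 0.52 and -0.07 in mutant libraries and 0.17, 0.14 and -0.37 in control libraries. For the type 2 members it was -0.12, 0.05 and -0.19 in mutant libraries and 0.53, 0.19 and -0.73 in control libraries. The 15 endothelial markers ranged from -0.06 to 0.05 in mutant libraries and from -0.06 to 0.06 in control libraries, with control replicate 3 highest. Gene by gene, control replicate 3 was the lowest of the 6 libraries in 7 of 12 fibroblast and 10 of 13 pericyte and smooth muscle markers. Eln, the most abundant fibroblast marker and a large part of that list's sum, was highest in control replicate 3. It had 1624, 1737 and 2089 CPM in mutant libraries, against 2143, 2115 and 2164 CPM in control libraries (log2 fold change -0.24, edgeR adjusted p = 0.308). Fibroblast markers summed to 4159 to 4667 CPM in mutant and 4126 to 4744 CPM in control libraries, and pericyte and smooth muscle markers to 422 to 539 CPM in mutant and 292 to 437 CPM in control libraries, and none of either list was at 0 counts in all libraries. Of these, 0 fibroblast and 0 pericyte and smooth muscle markers were called by edgeR or limma-voom, with 1 of each list at an unadjusted p under 0.05. The share of all tested genes called by edgeR was 3.27%. DESeq2 called 0 fibroblast markers and 1 pericyte marker, Rgs5, as higher. Of 14 tested macrophage and monocyte markers 1, Ear1, was called lower, and the list's median was -0.14, -0.16 and -0.21 in mutant libraries and 0.01, 0.04 and 0.10 in control libraries. Of 2 tested erythroid markers 0 were called by edgeR, DESeq2 or limma-voom, with 1 at an unadjusted p under 0.05, and 4 haemoglobin genes were listed at 0 in every library. The part of cell content in the members' values was not tested.

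**Figure D4:**
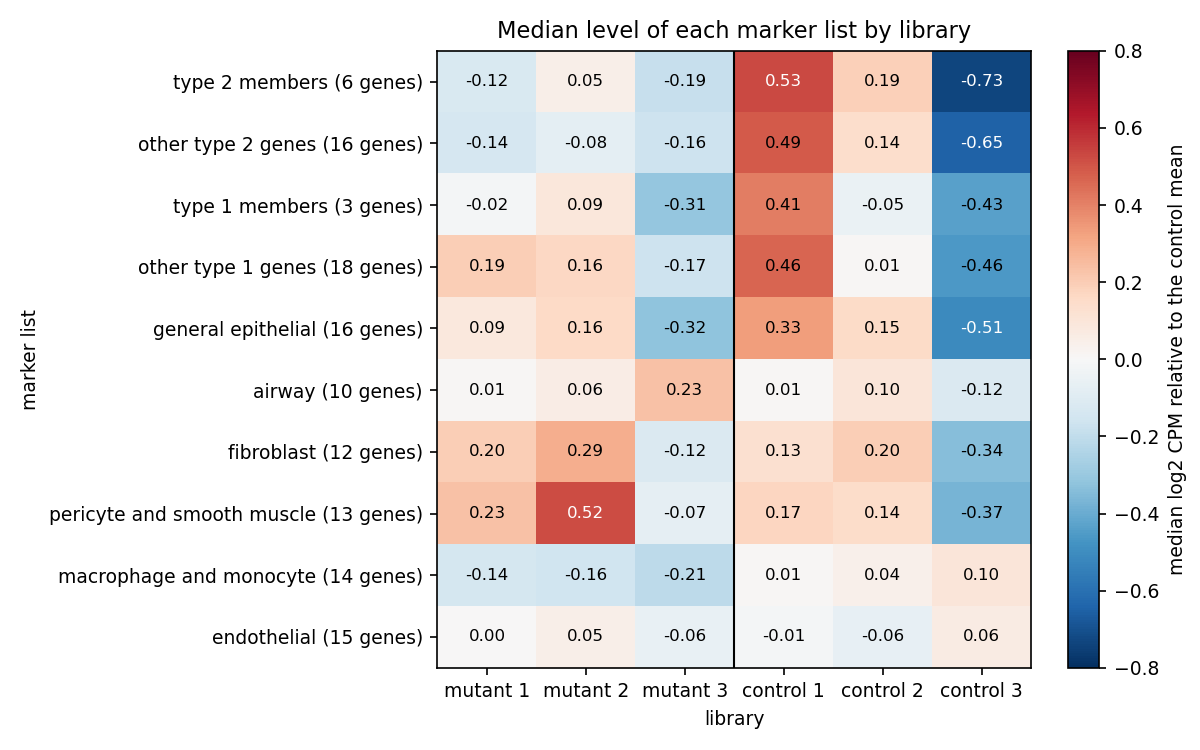
Median log2 CPM of each marker list relative to the mean of the control libraries, with mutant libraries left of the line and control libraries right of it, and the value printed in each cell. The row of type 2 members has mutant cells between -0.19 and 0.05, with control cells of 0.53 in control 1 and -0.73 in control 3, and the endothelial row runs from -0.06 to 0.05 in mutant and from -0.06 to 0.06 in control cells.

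Genes with a pattern most like the members were sought over all tested genes. Likeness was the root mean square difference, over the 6 libraries, of each gene's centred log2 CPM from the mean centred log2 CPM of the type 2 members. The median of that difference was 0.39 over other tested genes. The 10 closest were Ppp1r14c (0.05), Ociad2 (0.05), Dram1 (0.06), Gpr179 (0.06), Cblc (0.06), Cebpa (0.07), Nkx2-1 (0.07), Tspan11 (0.07), Snx24 (0.07) and Atp7b (0.08). Ppp1r14c is on the list of other type 2 genes, and Nkx2-1 and Cebpa encode transcription factors of the lung epithelium. Nkx2-1, whose CAAG core is marked in the sequences above, had 64.0, 63.0 and 56.2 CPM in mutant libraries, against 91.2, 80.7 and 42.8 CPM in control libraries (log2 fold change -0.23, interval -0.84 to 0.38). Its log2 fold change was -0.49 without control replicate 3 (edgeR adjusted p = 0.0595) and -0.0097 without control replicate 1. Gpr179 averaged 0.66 CPM, a level at which counting error is large. For the type 1 members the 5 closest genes were Apbb1 (0.05), Lsr (0.05), Ap1m2 (0.06), Pdgfa (0.07) and Edn3 (0.07), against a median of 0.33. Pdgfa encodes a growth factor of the alveolar epithelium that acts on fibroblasts, and Lsr a protein of epithelial junctions.

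The members' own distances were taken the same way. From the type 2 mean, the type 2 members lay at 0.04 to 0.18 and the type 1 members at 0.19 to 0.21. From the type 1 mean, the type 1 members lay at 0.065 to 0.095 and the type 2 members at 0.16 to 0.27. Abca3 lay at 0.18 from the type 2 mean and 0.16 from the type 1 mean, while the other 5 type 2 members were closer to the type 2 mean. Each member is part of the mean of its own cell type, so these distances are a description of 6 libraries.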

How the data were processed

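Polyadenylated RNA of CD31-selected lung cells was sequenced in 3 mutant and 3 control libraries. The authors deposited raw counts per gene symbol, once per library and once as a table, and 0 values differed between these forms. Per the submitters' processing notes the build was mm10 and DESeq2 was used, while the sources used here name no aligner, counter or annotation. Reads with no feature (53.9% to 58.2%) and ambiguous reads (0.288% to 0.366%) were left out.

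Counts were fitted in R 4.3.3 with edgeR 4.0.16 over all 14934 genes kept by filterByExpr, with TMM factors, robust quasi-likelihood F tests (two-sided), no covariate, and Benjamini-Hochberg adjustment, calling genes under 0.05. An SE is the log2 fold change divided by the square root of F, and intervals are 95%. CPM uses TMM-scaled library sizes, and TPM uses GENCODE M21 exon lengths on GRCm38, matched by symbol. Alternatives used DESeq2 1.42.0 and limma 3.58.1. Functions were tested on simulated data. Replicates of a group differed beyond sampling noise (the smallest chi-square per degree of freedom was 12.9). The labels call the samples independent and biological. With 3 libraries a group, each p-value sets the group difference against an estimate of the spread between libraries. That estimate borrows from other genes and is shared by both groups. The members' spreads were unequal, as for Sftpc with a coefficient of variation of 4.2% in mutant and 29.5% in control libraries. Depths correspond to 0.140 to 0.213 CPM for 3 counts.

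The members and the 11 gene lists were chosen with earlier results of these data known. Smad4, Pecam1 and Epcam were named outright. The other genes named besides members came from a rule taking called or most abundant list genes and those closest in pattern. Not every gene picked by that rule is printed. Other exceptions are stated beside them.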

Additional observations from a re-analysis of the deposited data

How the results depend on the processing

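The count of members called was 0 with all 6 libraries under every scaling, filter and tool tried, and 0 to 2 when 1 library was left out. The same ranges were 0 to 3 for other type 2 genes, 0 to 1 for other type 1 genes and 0 to 0 for general epithelial genes. Calls over all genes ran from 211 (without mutant replicate 2) to 428 when 1 library was left out, with 293 when control replicate 2 was dropped and 325 when control replicate 3 was. With all 6 libraries they ran from 442 (limma-voom) to 754 (DESeq2), against 488 in the main fit. They were 565 with no low-count filter and 701 when scaled to the endothelial markers, a scaling described below. The median SD of the members' log2 CPM over controls was 0.51, and 0.26 (without control replicate 3) to 0.72 (without control replicate 2) when 1 control was left out. Leaving out 1 library gave log2 fold changes of -0.27 to 0.14 for Sftpc, -0.56 to 0.045 for Sftpa1, -0.46 to 0.068 for Sftpb, -0.48 to 0.15 for Sftpd, -0.66 to -0.018 for Lamp3, -0.14 to 0.15 for Abca3, -0.22 to 0.093 for Hopx, -0.13 to 0.29 for Ager, -0.45 to 0.086 for Aqp5, -0.62 to 0.060 for Slc34a2, -0.029 to 0.26 for Ctsh, -0.024 to 0.46 for Col4a3, -0.33 to 0.20 for Cdh1, -0.49 to -0.0097 for Nkx2-1, -0.40 to -0.19 for Clic5, -0.21 to 0.25 for Epcam and -0.21 to 0.018 for Scgb1a1. Upper-quartile factors turned Abca3 to -0.0057, and limma-voom turned Epcam to 0.019. Scaling to the 15 endothelial markers, chosen after seeing the data, moved the median of all genes to 0.12 and turned Sftpc to 0.055, Hopx to 0.022, Epcam to 0.11 and Scgb1a1 to 0.048. None of these turned values passed the test, and the cause was not tested. The 15 endothelial markers used for scaling themselves differed between the groups. Their sum averaged 12668 CPM in mutant and 13763 CPM in control libraries, with 1 of them called higher and 3 lower in mutant libraries.

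The replicate number was fitted as a block although same-numbered libraries shared only a number in the labels. Their deviations correlated at 0.02, 0.03 and 0.24 for replicates 1, 2 and 3 over 12081 genes. The value for the replicates 3 was the highest of all pairings of a mutant with a control library. Mutant replicate 2 correlated best with control replicate 1, at 0.11. Whether the replicates 3 shared a batch was not tested. The replicate block gave 466 calls over all genes and 0 among members, and turned Epcam to 0.026.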
